A study of Mus musculus with 108 samples.

Results

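Distal stretches of the active TSS state were examined in mouse liver: places labelled as active transcription start sites in SD 3m, SD 12m and CR 12m alike although no RefSeq transcript starts within 5 kb. The regions were chosen by their state labels, as autosomal bins of 200 bp in state 1 in all 3 groups with a midpoint over 5 kb from the 5′ end of every RefSeq transcript in mm10, adjacent bins being merged. This gave 780 bins in 293 regions, out of 24621 autosomal bins in 8333 regions that held state 1 in all 3 groups. Because the labels themselves chose the regions, their state 1 is a description and was not tested.

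The labels come from ChIP-seq for H3K4me3, H3K27me3, H3K27ac and H3K4me1 on livers that had been formalin-fixed and embedded in paraffin, from female C57BL/6 mice. SD 3m comprised 8 mice of 3 months on the standard diet (30 libraries), and SD 12m 8 mice of 12 months on the same diet (29 libraries). CR 12m comprised 9 mice of 12 months fed 30% fewer calories from the age of 3 months (29 libraries). By mark the groups were less even. SD 3m, SD 12m and CR 12m had 7, 8 and 5 libraries of H3K4me3 and 8, 7 and 9 of H3K27ac. They had 8, 6 and 9 of H3K4me1 and 7, 8 and 6 of H3K27me3. The authors merged the libraries of a group and assigned 1 of 8 states to each bin, so every group has 1 segmentation, no value has an error between mice, and no difference between groups was tested. All intervals below are Wilson 95% intervals that cover counting error only, and neighbouring bins or regions are not independent.

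An active promoter carries H3K4me3 and H3K27ac around the start of transcription, and in mammals most such promoters lie in CpG islands, stretches where the CpG dinucleotide has not been depleted. Enhancers carry H3K4me1 with H3K27ac and usually little H3K4me3. In the model of the study, states 1 to 5 combine H3K4me3, H3K27ac and H3K4me1 in different ways and lack H3K27me3. State 1 is the active TSS, state 2 flanks TSS, states 3 and 4 are active enhancers, and state 5 is a poised enhancer. State 6 is Polycomb chromatin with H3K27me3. State 7 has weak H3K4me3 with minimal H3K27me3 and is found at repeats and lamina-associated domains, and state 8 is quiescent. The tissue label was checked with fixed markers: all 10 hepatocyte genes, among them Alb and Hnf4a, had a start in states 1 to 5 in all 3 groups, as did 4 of 5 endothelial genes, 1 of 7 leukocyte genes, 1 of 5 stellate genes, 0 of 4 bile duct genes, 1 of 4 neuronal genes and 0 of 3 muscle genes.

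Central sequences of 8 regions are shown because the regions fall into groups of very different base composition. All are from the RefSeq sequence of GRCm38.p6 (mm10), plus strand, in lower case with each CpG in capitals. The first 3 are CpG-rich, the next 3 are CpG-poor and lie near or between liver genes or in a large cluster on chromosome 6, the seventh lies in the coding exon of a zinc finger gene, and the last is repeated sequence.
Upstream of the let-7a-1 hairpin, chr13:48546101-48546300: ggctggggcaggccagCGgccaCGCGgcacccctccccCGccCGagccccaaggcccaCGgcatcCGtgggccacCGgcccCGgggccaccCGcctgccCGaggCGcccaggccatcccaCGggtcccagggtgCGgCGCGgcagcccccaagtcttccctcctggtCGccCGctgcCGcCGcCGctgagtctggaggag
Dleu2 intron, upstream of the miR-15a hairpin, chr14:61648401-61648600: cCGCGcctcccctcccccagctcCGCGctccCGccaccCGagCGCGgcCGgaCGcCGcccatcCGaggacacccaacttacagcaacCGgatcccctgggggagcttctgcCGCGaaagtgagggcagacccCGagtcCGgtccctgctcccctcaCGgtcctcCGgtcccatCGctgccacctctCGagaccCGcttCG
Near Foxa1, chr12:57539001-57539200: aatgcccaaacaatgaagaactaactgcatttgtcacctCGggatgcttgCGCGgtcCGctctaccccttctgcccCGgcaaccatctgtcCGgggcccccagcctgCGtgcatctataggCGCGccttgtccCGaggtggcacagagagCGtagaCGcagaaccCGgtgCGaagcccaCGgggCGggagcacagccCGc
Upstream of Apob, chr12:7950101-7950300: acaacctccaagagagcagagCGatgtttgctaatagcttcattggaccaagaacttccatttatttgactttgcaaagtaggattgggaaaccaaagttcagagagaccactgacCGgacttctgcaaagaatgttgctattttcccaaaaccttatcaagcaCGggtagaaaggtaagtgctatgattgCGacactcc
Cyp2d cluster, chr15:82484901-82485100: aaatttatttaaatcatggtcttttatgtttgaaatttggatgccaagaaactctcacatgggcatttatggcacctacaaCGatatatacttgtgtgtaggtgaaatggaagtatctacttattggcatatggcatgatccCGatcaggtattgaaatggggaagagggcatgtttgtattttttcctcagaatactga
Chromosome 6 cluster, chr6:37796101-37796300: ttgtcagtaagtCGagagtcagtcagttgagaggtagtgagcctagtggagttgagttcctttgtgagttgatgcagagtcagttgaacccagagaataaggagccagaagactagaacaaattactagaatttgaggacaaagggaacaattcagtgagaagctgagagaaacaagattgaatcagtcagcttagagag
Zfp872 coding exon, chr9:22200201-22200400: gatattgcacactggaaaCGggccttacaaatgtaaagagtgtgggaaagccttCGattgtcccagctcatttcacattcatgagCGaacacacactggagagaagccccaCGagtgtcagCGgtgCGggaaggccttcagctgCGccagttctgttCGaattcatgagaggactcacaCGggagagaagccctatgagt
Start of chromosome 9, chr9:3003701-3003900: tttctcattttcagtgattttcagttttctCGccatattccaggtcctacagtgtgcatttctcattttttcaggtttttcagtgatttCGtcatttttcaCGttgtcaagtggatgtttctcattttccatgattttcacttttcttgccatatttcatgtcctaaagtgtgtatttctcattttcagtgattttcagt
The 200 bases beside let-7a-1, in Dleu2 and beside Foxa1 hold 21, 23 and 17 CpGs. Those upstream of Apob, in the Cyp2d cluster and in the chromosome 6 cluster hold 4, 2 and 1, although all 6 carried the same label in all 3 groups.

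The 293 regions had a median length of 400 bp, 131 of them were a single bin, and the longest measured 4200 bp. Their median distance to the nearest RefSeq start was 20736 bp. Of these, 73 lay at most 10 kb away and 35 lay over 50 kb away. By annotation, 183 were intergenic (62.5%, 56.8 to 67.8), 76 lay in introns, 19 touched a coding exon, 5 another exon, and 10 a gene record without a transcript, such as the pseudogene Cyp2b27-ps. The 7654 regions that held state 1 in all 3 groups within 1 kb of a start are used below as the comparison near TSS. They overlapped a gene in 97.3% of cases (96.96 to 97.7), against 37.5% (32.2 to 43.2) of the distal regions. This contrast follows from the distance rule, and the share of all autosomal bins that overlap a gene is not given here. At the limit itself, the nearest bins inside it were 5.005, 5.058 and 5.071 kb from a start, in Cidec, Sfi1 and the Has1 and Spaca6 locus, and the nearest bins outside it were 4.994, 4.981 and 4.962 kb away. In 5 regions the stretch continued across the limit. The farthest were 198.434 kb from any start in an intron of Wwox, 182.458 kb away in intergenic sequence of chromosome 3, and 161.502 kb away in an intron of Mdga2.

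Base composition varied widely among the regions. A region met the CpG criterion where its G+C content was at least 50% and its CpG count at least 0.6 of that expected from its C and G. Of the distal regions 49 did so (16.7%, 12.9 to 21.4), against the 84.1% of regions near TSS. The median CpG ratio was 0.228 for distal regions and 0.829 near TSS, and the median G+C content 42.8% and 66.0%. Repeat-masked bases made up over 50% of the region in 89 distal regions (30.4%, 25.4 to 35.9) but in 1.18% of those near TSS. The share over all autosomal bins is not given here. Distal stretches of state 1 seen in SD 3m and in neither 12-month group, 1767 in number, were over 50% repeat-masked in 30.2% of cases (28.1 to 32.3), overlapped a gene in 37.9% (35.6 to 40.1) and met the CpG criterion in 3.06% (2.35 to 3.97). The kinds described next were set apart after these values had been seen. In 30 regions, called multi-copy, at least 50% of the 50-base words occurred more than once in the assembly. Of the rest, 47 met the CpG criterion and are called CpG-rich, and 216 are called other.

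**Figure D1:**
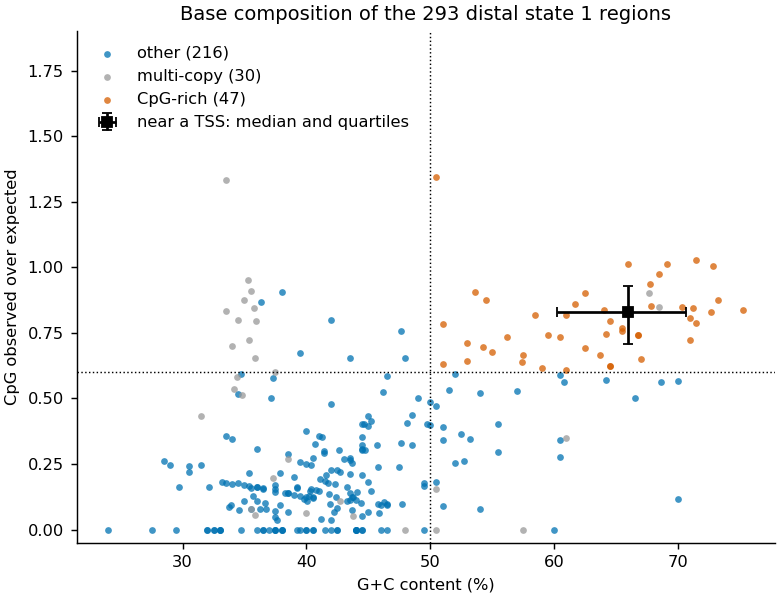
Each point is 1 of the 293 distal state 1 regions, placed by its G+C content (percent) and by its CpG count over that expected, and coloured by kind. Dotted lines mark 50% and 0.6, the square with bars gives the median and quartiles of the 7654 regions near TSS, and the 47 CpG-rich regions surround that square while most of the 216 other regions sit below 50% G+C.

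The 47 CpG-rich regions had a median G+C content of 64.2% and a median CpG ratio of 0.784, and 40 of them consisted of words found once in the assembly. They were mostly intergenic by RefSeq (34 of 47), but 17 (36.2%, 24.0 to 50.5) had a transcript start of the GENCODE vM21 annotation within 1 kb, compared with 29 of the 216 other regions (13.4%, 9.51 to 18.6) and 18 of the 30 multi-copy regions. Among all 293 it was 64 (21.8%, 17.5 to 26.9), and among the 1767 distal stretches of SD 3m alone it was 5.94% (4.93 to 7.14). Thus a share of the distal regions is distal to RefSeq starts and not to GENCODE starts. The region in Bad, a pro-apoptotic gene of the Bcl2 family, the regions at Rin2 and Cabin1, and one beside Slc2a3, a glucose transporter gene, are of this kind, with GENCODE starts 733, 67, 68 and 70 bp away. The start 70 bp away belongs to Gm5112 and not to Slc2a3.

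Short motifs differed between the kinds. The motifs given first each hold a CpG, and the CpG-rich kind was set apart by the CpG criterion. Of the regions near TSS, 84.1% met that criterion too. The shares of these motifs are thus bound to how the kinds were defined, and no separate likeness to promoters is read from them. A motif was counted on either strand and only where it lay entirely in a 200 bp bin. GGGCGG, the GC box bound by SP and KLF factors, was present in 50 of the 101 CpG-rich bins (49.5%, 40.0 to 59.1), in 49.8% of bins of the regions near TSS, in 2.46% (1.5 to 4.02) of the other distal bins and in 2.01% of all assembled autosomal bins. CCGGAAG, the ETS motif, was present in 7.92% (4.07 to 14.9), 8.71%, 0.656% and 0.579% of the same sets. TGACGTCA, the cyclic AMP response element, was present in 4 of the 101 CpG-rich bins and in none of the other distal bins, in 1.19% near TSS and in 0.111% of all bins.

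Motifs of liver factors are given for the other bins beside all assembled autosomal bins. TGTTTAC, bound by FOXA factors, occurred in 3.11% (2 to 4.81) of the other bins and in 2.98% of all bins. TTGCNNAA, bound by CEBP factors, occurred in 10.2% (8.01 to 12.8) and 9.28%. CAAAGTCCA of HNF4A occurred in 4 of 610 bins (0.656%, 0.255 to 1.67) against 0.257%, and GTTAATNAT of HNF1 in 2 of 610 against 0.703%. TATAAA was present in 17.2% (14.4 to 20.4) of the other bins, 1.98% of CpG-rich bins, 2.66% of bins near TSS and 18.9% of all bins. It holds no C or G, so its share by kind is also bound to base composition. Of the remaining motifs, CCAAT (NFY) was found in 28.5% of the other bins and in 29.1% of all bins, AAGATGGC (YY1) in 0.656% and 1.77%, GCGCATGC (NRF1) in 0.164% and 0.223%, and AGGGGGCGC or AGGTGGCAG (CTCF) in 0.328% and 0.332%. Letters in a window are a description and not a binding site.

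MicroRNA genes stood beside several CpG-rich regions. A microRNA is cut from a hairpin inside a longer primary transcript, and RefSeq records of microRNAs begin at the hairpin, so a promoter of the primary transcript can be distal by the rule used here. Of 1136 autosomal hairpins 31 lay within 50 kb of a distal region (2.73%), compared with 1.25% of the starts of protein-coding genes. Hairpins occur in clusters and share regions, and 16 regions were the nearest to these 31. A hairpin lay within 50 kb downstream of 11 of the 47 CpG-rich regions (23.4%, 13.6 to 37.2), of 4 of the 216 other regions (1.852%, 0.722 to 4.66) and of 0 of the 30 multi-copy regions (up to 11.4%), counting every region and not only the nearest to a hairpin. Neighbouring regions can face the same hairpin, so these counts are not of independent regions. The same share for regions near TSS or for all autosomal bins is not given here, so no trait of the distal regions is read from it. Mature sequences of 13 of these microRNAs are given from RefSeq, with the seed (bases 2 to 8) in capitals, and were picked after the hairpins were known.
mmu-let-7a-5p: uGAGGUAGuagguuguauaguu
mmu-let-7f-5p: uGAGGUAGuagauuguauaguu
mmu-let-7d-5p: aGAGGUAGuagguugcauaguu
mmu-let-7b-5p: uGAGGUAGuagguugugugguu
mmu-let-7c-5p: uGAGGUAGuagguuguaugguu
mmu-let-7e-5p: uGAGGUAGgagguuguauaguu
mmu-miR-30a-5p: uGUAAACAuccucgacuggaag
mmu-miR-30c-5p: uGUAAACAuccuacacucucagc
mmu-miR-15a-5p: uAGCAGCAcauaaugguuugug
mmu-miR-16-5p: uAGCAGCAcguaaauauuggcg
mmu-miR-23a-3p: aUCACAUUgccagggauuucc
mmu-miR-27a-3p: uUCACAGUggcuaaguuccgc
mmu-miR-24-3p: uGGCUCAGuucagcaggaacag
The let-7 microRNAs shown share the seed GAGGUAG, miR-30a and miR-30c share GUAAACA, and miR-15a and miR-16 share AGCAGCA, while miR-23a, miR-27a and miR-24 have a seed each.

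The region beside let-7a-1, let-7f-1 and let-7d at chr13:48545601-48546800 measured 1200 bp, held 130 CpGs and began 7.329 kb upstream of the let-7a-1 hairpin. Its state 1 stretch was 1.2 kb in SD 3m, SD 12m and CR 12m, and a GENCODE start of 6720427I07Rik lay within it. The region in an intron of Dleu2 at chr14:61648001-61649000, upstream of miR-15a and miR-16-1 by 15.891 and 16.029 kb, held 117 CpGs in a stretch of 1 kb in each of the 3 groups. It had the highest CpG ratio (1.01) among regions of at least 400 bp. The second highest, at chr15:85671401-85672000, lay 34.603 and 35.319 kb upstream of let-7c-2 and let-7b, in intergenic sequence 31.873 kb from the RefSeq start of Lncppara. Its stretch was 0.6 kb in SD 3m and 2 kb in SD 12m and CR 12m, where it joined the neighbouring region at chr15:85670201-85670600. The region at chr8:84200801-84201800, 6.718 kb upstream of miR-23a, miR-27a and miR-24-2, had 68.6% G+C and a CpG ratio of 0.561, just under the criterion, and a stretch of 1.0, 1.2 and 1.2 kb. Single bins stood upstream of miR-30a and miR-30c-2 (by 15.269 and 34.701 kb) and of miR-30d and miR-30b (by 21.112 and 24.891 kb). Beside miR-99b, let-7e and miR-125a the region lay downstream of the hairpins, at the Spaca6 coding exon.

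Genes of 6 lists were examined, which were chosen with earlier results of these data known. Of these genes, 5 hosted a region or had the start nearest to one, and they belonged to 3 lists. These were 3 of 32 hepatocyte transcription factors and nuclear receptors, 1 of 31 secreted plasma proteins and 1 of 30 genes of liver metabolism, beside 0 of 18 genes of the growth factor and insulin axis, 0 of 22 developmental transcription factors and 0 of 14 clock genes. Over all autosomal protein-coding genes the share was 0.657%. The lists hold few genes, and no enrichment was tested or is read from these counts. The 3 transcription factor regions were CpG-rich. The one nearest to Foxa1, a pioneer factor of liver development, covered a single bin 7.011 kb downstream of its start. Its stretch measured 1.0 kb in SD 3m, 0.8 kb in SD 12m and 1.2 kb in CR 12m, while the Foxa1 start itself was in state 4 in SD 3m and SD 12m and in state 1 in CR 12m. The one nearest to Onecut2 lay 6.532 kb upstream, on chromosome 18, with stretches of 0.6, 0.8 and 0.8 kb beside a start in state 4, 4 and 1. The one nearest to Nr2f2, an orphan nuclear receptor gene, lay 8.121 kb away, with stretches of 0.6, 0.6 and 0.2 kb.

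Apob encodes the structural protein of very low density lipoproteins, and its 2 regions were CpG-poor (CpG ratios 0.108 and 0.208) and lay 28.529 and 27.129 kb upstream of its start. The stretch holding the nearer region was 1.0 kb in SD 3m, 1.8 kb in SD 12m and 0.8 kb in CR 12m. The Apob start was in state 1 in all 3 groups. The region nearest to Ass1, a urea cycle enzyme gene, was CpG-rich and sat in a coding exon of the neighbouring gene Hmcn2, with stretches of 0.6, 0.8 and 1.0 kb.

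The nearest RefSeq start was in states 1 to 5 in SD 3m for 192 of the 293 regions (65.5%, 59.9 to 70.7), in SD 12m for 202 (68.9%) and in CR 12m for 205 (70.0%), compared in SD 3m with 56.3% of all TSS bins and with 81.5% (79.6 to 83.2) of the 1767 distal stretches of SD 3m alone. By kind, the share in SD 3m was 37 of 47 CpG-rich regions, 151 of 216 other regions and 4 of 30 multi-copy regions. For 86 regions the nearest start was in states 6 to 8 in all 3 groups.

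Among SD 3m bins of state 1, the distal ones were the least often in state 1 in the other groups. Of the 9407 distal bins 8.29% (7.75 to 8.87) were in state 1 in all 3 groups, against 22.1% (21.1 to 23.1) between 1 and 5 kb and 61.1% (60.6 to 61.6) within 1 kb, and 46.6% over all distances. The rule chose the 780 bins as the part that was kept, so this share is given as a description and was not tested. CpG-rich distal bins were in state 1 in all groups in 100 of 297 cases (33.7%, 28.5 to 39.2) and distal bins that did not meet the CpG criterion, judged bin by bin, in 7.46% (6.94 to 8.02), against 71.1% and 40.4% of bins within 1 kb. Distal bins over 50% repeat-masked and the rest were kept to a like extent, 7.81% and 8.57%. In SD 12m most of the 9407 bins were in state 4 (45.8%), state 1 (19.8%) or state 3 (12.6%). In CR 12m the shares were 41.4%, 12.6% and 23.5%.

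The stretches holding distal regions were shorter in sum at 12 months, and by kind the difference lay in the other regions. The median stretch was not shorter over all 293 regions, at 800 bp in SD 3m, 1000 bp in SD 12m and 800 bp in CR 12m. For the CpG-rich regions it was 600, 800 and 800 bp. Summed once per stretch, state 1 stretches holding distal regions covered 426.4 kb in SD 3m, 293.4 kb in SD 12m and 264 kb in CR 12m, ratios to SD 3m of 0.688 and 0.619. For the other regions these sums were 380.2, 243.2 and 212.6 kb. For CpG-rich regions they were 31, 34.6 and 33.4 kb, and for multi-copy regions 15.2, 17.6 and 20 kb. Near TSS the sums were 6217.4, 6873.6 and 6236.6 kb, ratios of 1.106 and 1.003. Counting every autosomal bin of state 1 over 5 kb from a start, kept or not, gave 9407 at 3 months. At 12 months this count was 3763 on the standard diet and 2318 under CR. Within 1 kb the counts were 36499, 38491 and 32519. Less distal state 1 at 12 months was thus not particular to the 293 regions. The stretch was longer in SD 12m than in SD 3m for 103 of 293 distal regions, shorter for 123 and equal for 67, while near TSS it was longer for 49.1%. Among the 216 other regions it was longer for 75, shorter for 108 and equal for 33, and in CR 12m longer for 61, shorter for 123 and equal for 32. Among the 47 CpG-rich regions it was longer for 21, shorter for 9 and equal for 17 in SD 12m. Both 12-month groups are set against the same SD 3m segmentation, and the read depth behind each segmentation is unknown.

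**Figure D2:**
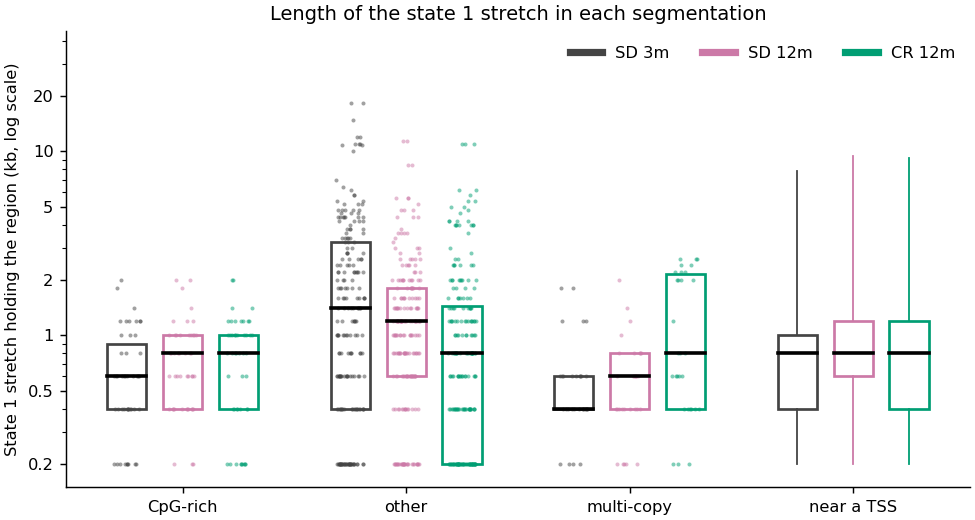
The vertical axis gives the length in kb, on a log scale, of the state 1 stretch that holds a region, by kind and by group. Points are the distal regions, boxes give the quartiles with the median as a black line, and lines for the 7654 regions near TSS run from the lowest to the highest value. The median of the other regions falls from 1.4 kb in SD 3m to 1.2 kb in SD 12m and 0.8 kb in CR 12m, and near TSS it is 0.8 kb in each.

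The difference was largely one of long stretches. In SD 3m 85 distal regions (29.01%) lay in a stretch of at least 2 kb, against 5.02% of regions near TSS. Of these 85, 77 (90.6%, 82.5 to 95.2) had a shorter stretch in SD 12m, and their median went from 3.8 to 1.4 kb. Near TSS it was 238 of 384 (62.0%, 57.0 to 66.7), from 2.4 to 2 kb. A group chosen for length in one segmentation tends to be shorter in another, so the reverse was also counted. Of the 53 distal regions with at least 2 kb in SD 12m 30 (56.6%, 43.3 to 69.0) were shorter in SD 3m, and near TSS 424 of 539 (78.7%, 75.01 to 81.9) were. In CR 12m, 76 of the 85 were shorter than in SD 3m, and 39 of the 57 with at least 2 kb in CR 12m were shorter in SD 3m. Of these 57, 12 were multi-copy regions, and no multi-copy region reached 2 kb in SD 3m. These counts are of regions, so a stretch holding several regions counts more than once and the intervals are too narrow. Of all 293 regions, 35 had the same stretch length in the 3 groups.

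The bins beside the regions differed between groups as well. Within 1 kb, a bin in an enhancer state (3, 4 or 5) was found for 100 regions in SD 3m (34.1%, 28.9 to 39.7), 186 in SD 12m (63.5%, 57.8 to 68.8) and 203 in CR 12m (69.3%, 63.8 to 74.3). The same measure near TSS was 57.8%, 89.95% and 93.04%, so this difference was not particular to the distal regions. A flanking bin in state 2 was found for 66.6%, 60.1% and 57.0% of the distal regions and for 96.3%, 87.7% and 84.4% near TSS. State 7 was found beside 24.9%, 16.04% and 15.02% of the distal regions and beside 2.84%, 2.03% and 0.888% near TSS. At 1 kb from the centre, state 1 was held by 43.1% of the other regions in SD 3m, 32.4% of them in SD 12m and 21.3% under CR on the side of lower coordinates, and by 42.6%, 31.5% and 29.2% on the other side. For the CpG-rich regions the values were 4.26%, 4.26% and 6.38% on the lower side and 8.51%, 2.13% and 2.13% on the higher.

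**Figure D3:**
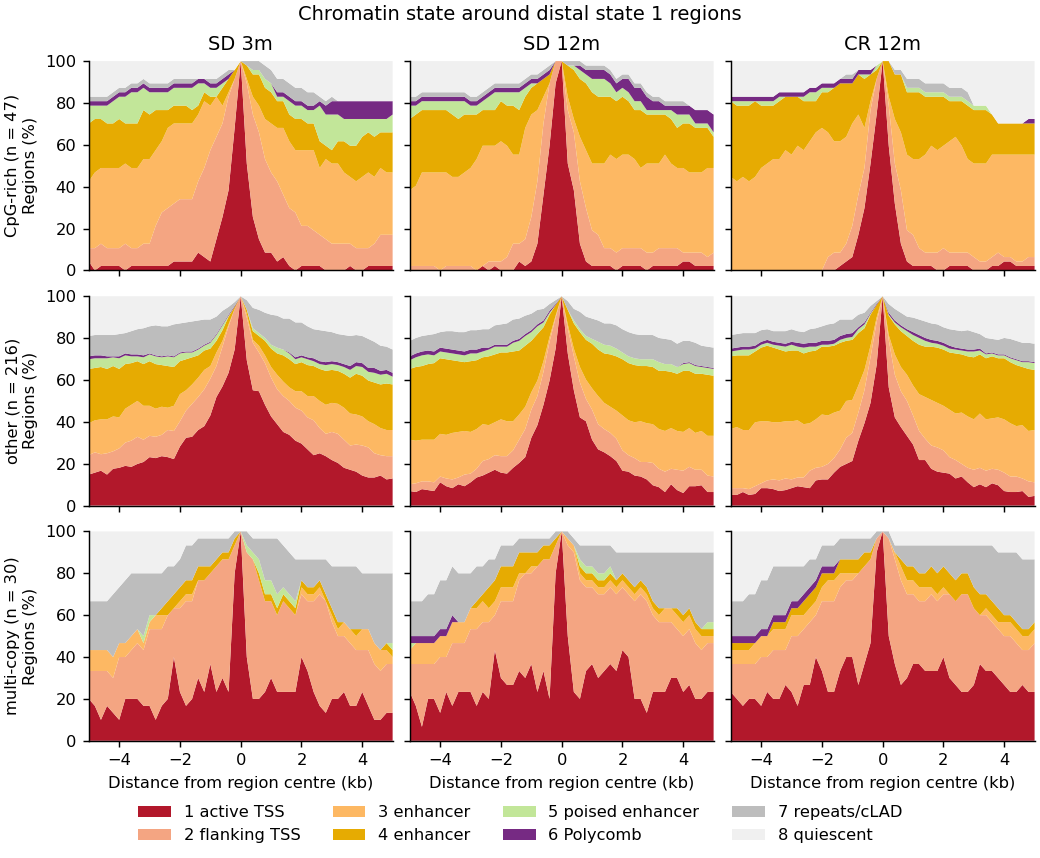
Each panel gives the percent of regions in each of the 8 states (vertical axis) by distance from the region centre in kb (horizontal axis), with a row for each kind and a column for each group. State 1 forms a narrow peak in CpG-rich regions and a broad one in the other regions of SD 3m, and the multi-copy regions are surrounded by state 2.

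The regions were unevenly placed. Joined where at most 100 kb apart, they formed 175 groups, of which 132 held a single region and 21 held 3 or more, these 21 holding 117 regions. Chromosome 6 held 40 regions, chromosome 9 held 29 and chromosome 13 held 23.

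**Figure D4:**
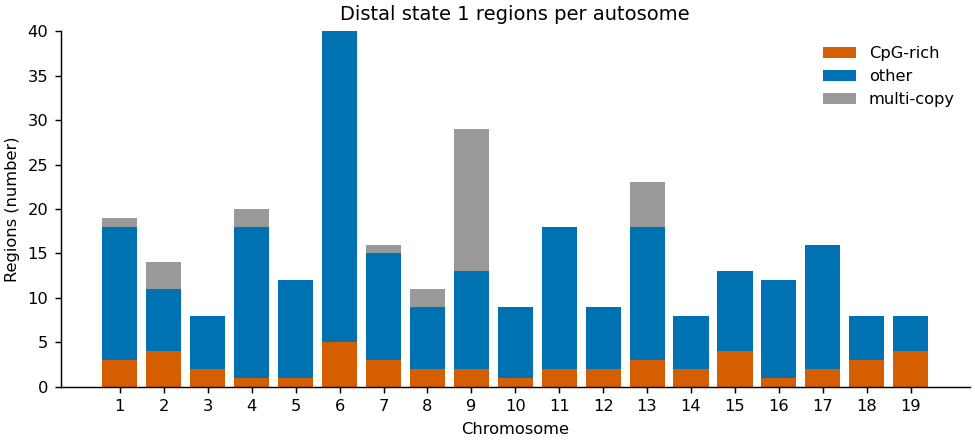
Bars give the number of distal state 1 regions (vertical axis) on each autosome (horizontal axis), divided by kind. Chromosome 6 is highest with 40 regions, and 16 of the 29 on chromosome 9 are multi-copy.

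The cluster with the most region sequence, 14.6 kb, lay at chr6:37672001-37832600 and held 16 regions in 160.6 kb of mostly intergenic sequence. Protein-coding genes within 100 kb were Trim24, a transcriptional cofactor whose start was in state 1 in all 3 groups, and Akr1d1, a bile acid synthesis enzyme whose start was in state 3. State 1 covered 88.8 kb of the cluster in SD 3m, 36.4 kb in SD 12m and 24.8 kb in CR 12m. The region at chr6:37794201-37798200, shown above, was 4000 bp long and lay in a stretch of 18.4 kb in SD 3m, 11.4 kb in SD 12m and 4 kb in CR 12m. The region at chr6:37754001-37758000 was as long and lay in stretches of 10, 4.8 and 5 kb. Without this cluster the summed stretches of all regions had ratios to SD 3m of 0.756 (SD 12m) and 0.684 (CR 12m).

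Of the 21 clusters with 3 or more regions, the sequence in state 1 was smaller in SD 12m than at 3 months in 9, larger in 7 and equal in 5. In CR 12m it was smaller than at 3 months in 14, larger in 5 and equal in 2. The cluster at chr15:82429401-82598200 overlaps the Cyp2d genes, which encode drug-metabolising cytochromes P450, and state 1 covered 23.4 kb in SD 3m, 6.6 kb in SD 12m and 7 kb in CR 12m. Its largest region, chr15:82483201-82486800, measured 3600 bp and lay in stretches of 4.8, 3.8 and 5.4 kb. The cluster at chr4:49367401-49530800 spans Acnat1, Acnat2 and Baat, acyltransferases of fatty acid and bile acid conjugation, with state 1 over 17, 5 and 6.4 kb. In the cluster of 3 regions at the pseudogene Cyp2b27-ps on chromosome 7 state 1 covered 4.2, 4.2 and 3.2 kb, although the longest stretch through it, which also ran outside it, measured 11, 4.4 and 1.8 kb. The cluster at Abcg2, a transporter gene on chromosome 6, held 1.8, 2.2 and 2 kb. State 1 covered 11.8, 12 and 12 kb of the cluster on chromosome 11 beside Sfi1 and Pisd-ps1, and 1.6 kb in each group of the cluster on chromosome 2 near Gm33780. It covered more at 12 months in the clusters at chr13:119597201-119613600 near Ccl28 (1.6, 4.2 and 3.6 kb) and at chr17:13541201-13587400 (7, 8.6 and 7.8 kb). These clusters were named after their values were seen.

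**Figure D5:**
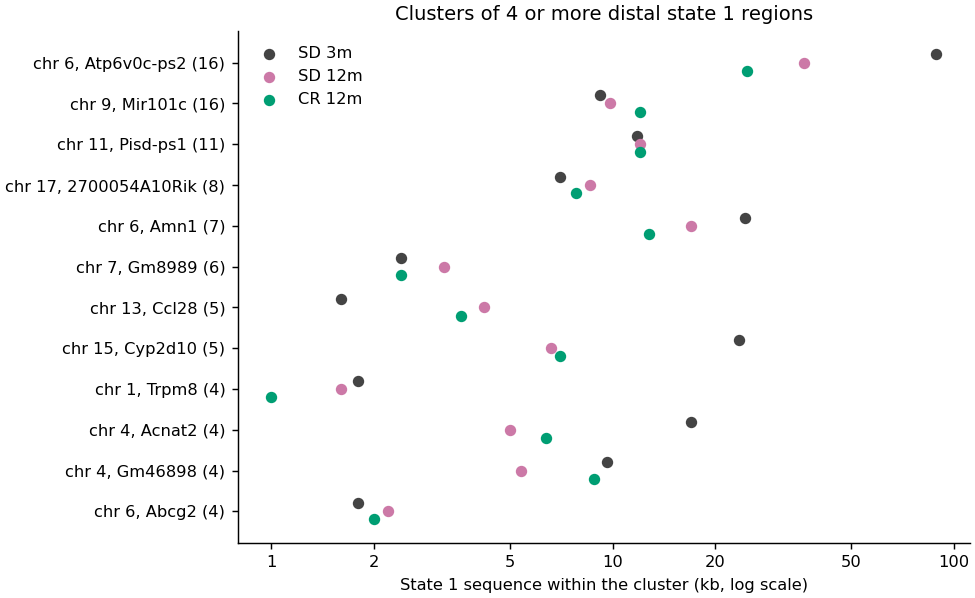
For each of the 12 clusters with 4 or more regions, points give the state 1 sequence inside the cluster (kb, log scale) in SD 3m, SD 12m and CR 12m. Labels name the chromosome, a gene with the nearest start and the number of regions. The cluster on chromosome 6 near Atp6v0c-ps2 goes from 88.8 kb in SD 3m to 24.8 kb in CR 12m, and the cluster on chromosome 11 stays between 11.8 and 12 kb.

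Among the 10 longest regions, the longest was a coding exon of Zfp872, at chr9:22198201-22202400, with a stretch of 5.4 kb in SD 3m and 4.8 kb in both 12-month groups. Part of it is shown above, and the gene belongs to the zinc finger family of DNA-binding proteins. A region of 2000 bp covered coding exon sequence at Zfp867 and Jmjd4, with stretches of 5.8, 2.2 and 4 kb, and one of 2000 bp near Zfp982 lay in stretches of 10.8, 2.8 and 11 kb. In all, 13 of the 293 regions (4.44%, 2.61 to 7.44) were in or nearest to a gene named Zfp, against 256 of 7654 (3.34%, 2.96 to 3.77) near TSS. The other 7 lay at chr6:37754001-37758000, chr6:37794201-37798200, chr15:82483201-82486800, chr6:149340001-149342400, chr15:75322001-75324400, chr9:124270001-124272200 and chr11:3102201-3104000, and measured from 1800 to 4000 bp. Of the regions of at least 400 bp without a single CpG, the first by position were one in an intron of Gm30847 on chromosome 1, in a stretch of 2.6 kb in SD 3m, 0.4 kb in SD 12m and 0.6 kb in CR 12m, one near Trpm8 with 0.4 kb in each group, and one beside Mup21, a major urinary protein gene, with 1.0, 1.2 and 0.6 kb.

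The 30 multi-copy regions had a median of 93.9% repeat-masked bases. Of these, 16 lay at chr9:3001601-3030000, next to unassembled sequence (the nearest gap at 1601 bp), with Mir101c as the nearest start. On average 95.8% of their bases were repeat-masked and 94.6% of their 50-base words occurred more than once, the median number of copies per word ranging from 4 to 13. State 1 covered 9.2 kb of this cluster in SD 3m, 9.8 kb in SD 12m and 12 kb in CR 12m, between bins of state 2. Of the 30, 4 had an enhancer state within 1 kb in SD 3m, and 5 in each 12-month group. The authors removed reads of mapping quality under 1, and the part that repeated sequence plays in these labels was not tested.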

How the data were processed

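The authors aligned reads to mm10 with BWA 0.6.2-r126, removed reads of mapping quality under 1 and duplicates with SAMtools 0.1.18, merged the libraries of a group and ran ChromHMM with 8 states. The deposited value per 200 bp bin is a state label from 1 to 8, not a signal, and its read depth is unknown. The 108 libraries came from 31 mice. SD 6m was not analysed here.

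Labels were joined to RefSeq transcript starts of GRCm38.p6 and, as an alternative, to GENCODE vM21 with numpy 2.4.6 and pandas 2.3.3 under Python 3.11.15, and drawn with matplotlib 3.10.9. Merging was tested on a simulated segmentation of 500000 bins, where 200 of 200 planted regions were recovered. Words of 50 bases were counted exactly, on both strands. Motifs skipped bins with unassembled bases, and no motif contains another.

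With 1 segmentation a group, no test was possible. Members, gene lists and motifs were chosen with earlier results of these data known. The regions named were the 10 longest, the 3 highest and 3 lowest in CpG ratio of at least 400 bp, the 3 nearest either side of 5 kb, the 3 farthest from a start, and those beside list genes. Clusters, kinds, microRNAs, Zfp genes and genes with GENCODE starts were added after seeing values.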

Additional observations from a re-analysis of the deposited data

Results flagged for a closer look

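Chromosome X was outside the rule, but 7 of its bins met every other part of it, in 4 regions. They lay near Wdr45, near 2010308F09Rik, near Mir222 (in an exon of Gm14636) and in an intron of Ftx, and were flagged as a signal in data that the comparisons do not use.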

How the results depend on the processing

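No paired analysis was possible because each group has a single segmentation, so replicates could not be left out either. Of 97 recomputed values, 70 stayed within the limits of the reported value and 27 did not; no ratio of stretch lengths crossed 1 and the cause was not tested. The number of regions, 293, became 485 with curated transcripts only, 488 over 2 kb, 162 at 400 bp or more and 185 when regions within 5 kb of GENCODE starts were left out, a setting added after seeing the data like the 3 others marked as added here. With curated transcripts only, the share overlapping a gene was 55.7%, meeting the CpG criterion 28.9% and with an enhancer state within 1 kb in SD 3m 44.9%. The share with the nearest start in states 1 to 5 in SD 3m, called the start share below, was 76.3%. The stretch ratios were 0.819 for SD 12m and 0.745 for CR 12m, and 11.8% of distal SD 3m bins were kept. Over 2 kb, the gene share was 55.5%, the start share 74.4%, the ratios 0.827 and 0.785, and the kept share 9.80%. Without regions over 50% repeats, the gene, CpG, enhancer and start shares were 43.6%, 23.5%, 42.2% and 71.6%. Merging within 1 kb gave an enhancer share of 40.4%, and 400 bp or more a CR 12m ratio of 0.730. Without GENCODE starts (added) the ratios were 0.630 and 0.553, and without multi-copy regions (added) the start share was 71.5%. Without the chromosome 6 cluster that holds the most region sequence (added) the ratios were 0.756 and 0.684. Leaving out the start of chromosome 9 (added) moved none. Depth cannot be read from labels.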
